A study of Arabidopsis thaliana with 8 samples.

Results

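Inflorescences of *Arabidopsis thaliana* plants that expressed *IaTCP1* were compared with those of plants that carried the vector without an insert. The comparison uses the 2 arrays titled 35S::IaTCP1 and the 2 arrays titled control, 4 of the 8 ATH1 arrays of the series, and every probe set on them except the hybridization controls, which leaves 22746 of 22810. *IaTCP1* is a TCP transcription factor gene of the crucifer *Iberis amara*, and it stood in the pBAR vector behind the CaMV35S promoter, which is active in nearly all tissues and not only where such a gene normally acts. The control group carried the empty pBAR vector. All plants were of the cultivar Columbia and of T2 lines, and secondary inflorescences with closed buds only were harvested before anthesis. Each group stands for 1 transgenic line and its 2 arrays for 2 technical RNA samples of that line, so the tests measure how far RNA samples of a line vary and say nothing on the variation between lines or plants. IaTCP1 plants had been chosen for a clear flower phenotype, which is smaller petals. The other 4 arrays, 2 of 35S::TCP1 (the *Arabidopsis* relative of *IaTCP1*, likewise with smaller petals) and 2 of 35S::CYC (*CYCLOIDEA* of *Antirrhinum majus*, with larger petals), share vector, promoter, cultivar, generation and tissue, and are used for comparison. Their plants had likewise been chosen for clear flower phenotypes.

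TCP proteins are plant transcription factors that bind DNA through a basic helix-loop-helix-like domain and act on cell division and growth. Those of the CYC2 clade, to which *CYCLOIDEA*, *TCP1* and *IaTCP1* belong, mark the upper side of flowers with a single plane of symmetry, and in *Iberis amara* the gene is more strongly expressed in the small upper petals than in the large lower ones. Buds before anthesis hold sepals, petals, carpels and stamens at many stages, and the stamens hold the tapetum and developing pollen, so a bulk sample sums all of these.

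Transcript levels are given as log2 intensities, on which a difference of 1 is a 2-fold change. Probe sets were tested with limma across all 8 arrays, and a transcript is said to have risen or fallen where the IaTCP1 mean differed at least 2-fold from that of the empty vector and the p-value, adjusted by Benjamini-Hochberg over all 22746, did not exceed 0.05. The medians of the 8 arrays lay between 6.48 and 6.56, and the pair of arrays of a group correlated with r of 0.9967 for IaTCP1 and 0.9971 for the empty vector. The *IaTCP1* transcript itself is not measured, since the array carries *Arabidopsis* probes, and no probe set is paired with *TCP1* in the tables used here. A gene marked † is named only through the study's own tables of changed genes, which select for change. A gene marked ‡ was picked after its values were seen.

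Far more transcripts fell than rose in IaTCP1 inflorescences. Of all probe sets, 222 rose (0.976%) and 534 fell (2.35%), together 3.32%. In each of the 756 both IaTCP1 arrays lay beyond both empty vector arrays, which holds in the upward direction for 35.6% of all probe sets and downward for 23.4%. The rises reached further than the falls: 7 rises and 3 falls were at least 8-fold, and 3 rises but 0 falls at least 16-fold, while 41 rises and 96 falls were at least 4-fold. Rising transcripts had a median level of 7.43 in IaTCP1 and 5.80 in empty vector inflorescences, whereas falling ones had a median of 5.65 in IaTCP1 and 7.20 in empty vector inflorescences. Falls were most frequent among transcripts with a mean level of 6 to 8, where 195 of 6638 fell (2.94%) and 98 rose (1.48%), and least so above 10, where 17 of 1442 fell (1.18%) and 10 rose (0.693%). The median change of all probe sets was 0.05.

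**Figure D1:**
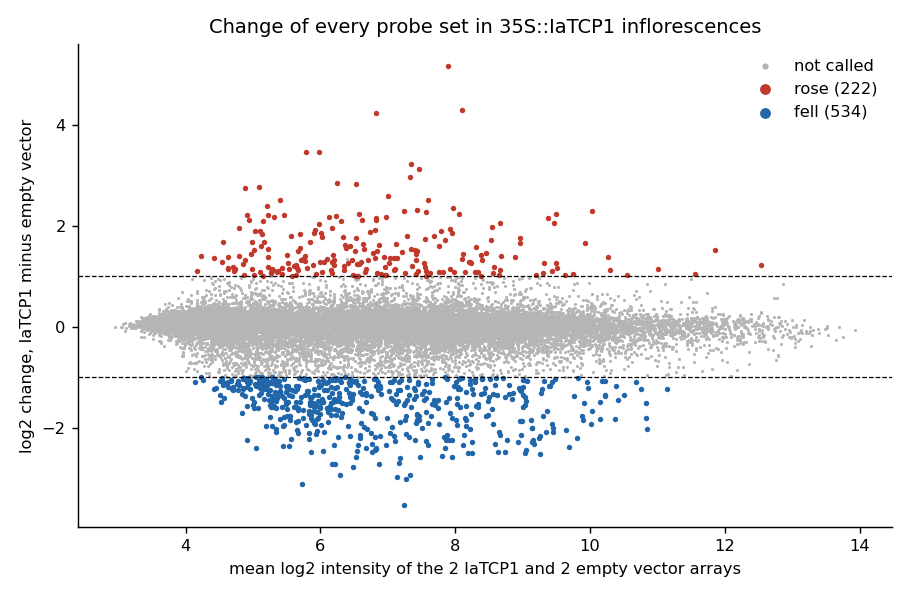
Each point is a probe set, with its mean log2 intensity over the 4 arrays on the horizontal axis and its log2 change (IaTCP1 minus empty vector) on the vertical axis. The 222 rises are red and the 534 falls blue, the highest points are rises, and the falls form a broader band below the bulk of unchanged probe sets.

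Genes of diverse functions led the rises. AT2G05540, a glycine-rich protein, measured 10.46 and 10.50 on the IaTCP1 arrays, against 5.32 and 5.31 on the empty vector arrays, which is a 35.9-fold difference (limma adjusted p = 9.03e-12). AT5G05890, a UDP-glycosyltransferase that is a member of a family attaching sugars to small molecules, measured 7.51 and 7.52, against 4.05 and 4.06 with the empty vector (log2 change 3.46 ± 0.08, standard error; adjusted p = 2.22e-10). In both genes the lines stood far apart and the arrays of a line lay within 0.1 of each other. *BGLU28* (AT2G44460), a beta-glucosidase, measured 9.17 and 8.90 in IaTCP1, against 5.91 and 5.89, and its rise was 8.76-fold. *SFP1* (AT5G27350), a sugar transporter of the major facilitator superfamily, measured 8.61 and 8.17, against 6.18 and 6.0. *SIB2*† (AT2G41180), a VQ motif protein named for binding sigma factors, measured 8.63 and 8.55, against 6.30 and 6.26. These 3 rises lay between 2.30 and 3.13 on the log2 scale with no overlap of the groups. AT1G12010, an oxidase of the superfamily of 2-oxoglutarate-dependent oxygenases (log2 change 4.24), and AT5G44580, a protein of unknown function (2.60), were also among the 15 largest rises, the rest of which were mostly genes of defence and of transcription.

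The 15 largest falls included enzymes of the cell surface. Peroxidase gene AT5G19880 measured 4.14 and 4.20 in IaTCP1, against 7.25 and 7.33 with the empty vector, and a second class III peroxidase gene, AT4G11290, measured 6.0 and 5.73, against 8.76 and 8.83. Such peroxidases act on wall polymers and on reactive oxygen. For AT5G42170, a lipase-like enzyme of the GDSL type, the values were 4.8 and 4.83, against 7.68 and 7.84, a 7.67-fold difference (adjusted p = 1.5e-09). The small auxin-induced gene AT4G13790† of the SAUR type measured 5.77 and 5.75, against 8.68 and 8.89. All 4 lay below the median of the array in IaTCP1 and above it in the control. AT1G05450, a lipid-transfer protein (log2 change -2.58), AT1G29140, a protein of the pollen allergen Ole e 1 type (-2.58), AT4G02250, an inhibitor of invertase or pectin methylesterase (-2.70), and AT1G12080, related to vacuolar calcium-binding proteins (-2.53), belong to this set too, as do AT2G17845 (a short-chain dehydrogenase, -2.73), AT3G21970 (a protein with DUF26 domains, -2.72) and AT4G16146 (-2.73).

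**Figure D2:**
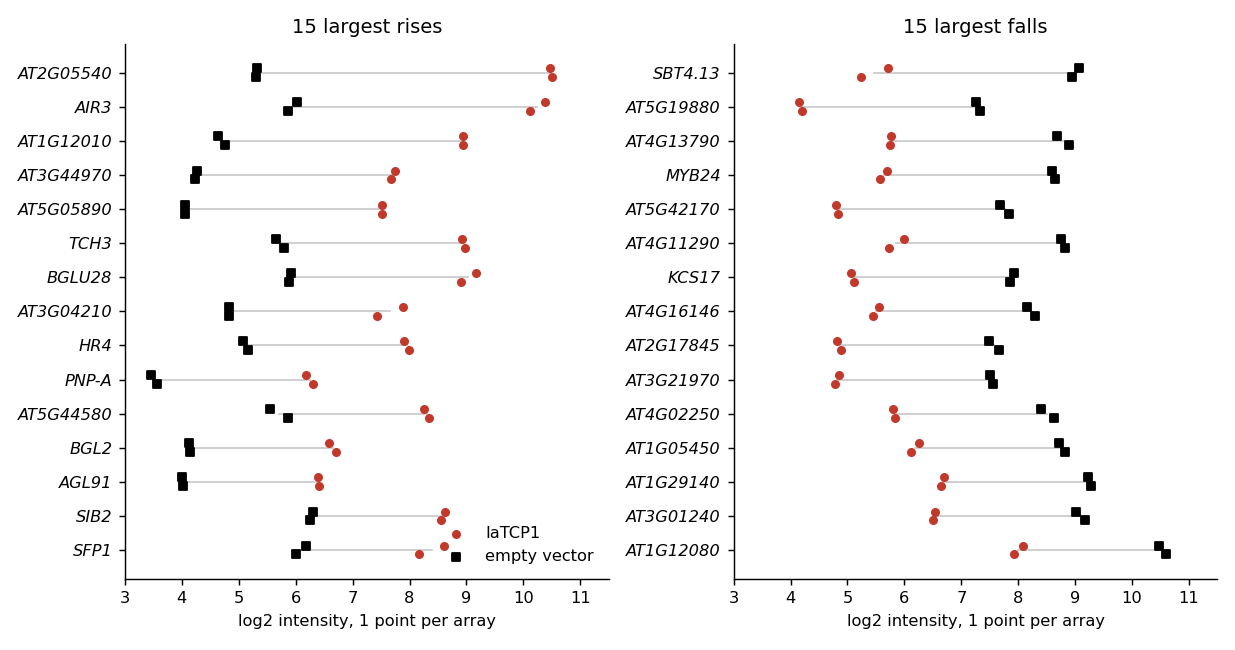
Log2 intensity on each of the 4 arrays (red for IaTCP1, black for empty vector) for the 15 largest rises and the 15 largest falls among probe sets that name 1 gene. No gene of the 30 has overlapping groups, and arrays of a group lie close together except for a few rises and for *SBT4.13*.

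Genes of stamen maturation fell. *MYB24*† (AT5G40350) and *MYB21*† (AT3G27810), a closely related pair of regulators through which jasmonate and gibberellin act on stamen filaments and pollen, were both lower. *MYB24* measured 5.70 and 5.58 in IaTCP1 and 8.60 and 8.64 in empty vector inflorescences, a 7.87-fold fall (adjusted p = 1.63e-09). *MYB21* was measured by 2 probe sets, with 9.07 and 9.08 against 10.41 and 10.48 on one (log2 change -1.37) and 7.31 and 7.09 against 8.52 and 8.70 on the other (-1.41). *MYB108*† (AT3G06490), which acts with *MYB24* in anther maturation, measured 4.89 and 4.95, against 6.94 and 7.03, and was 4.18-fold lower (adjusted p = 1.16e-07). In IaTCP1 *MYB24* and *MYB108* lay below the median of the array and both probe sets of *MYB21* above it, and in the control all 4 probe sets lay above it. *JAZ10*† (AT5G13220) and *JAZ5*† (AT1G17380), repressors that jasmonate itself induces, changed by -1.39 and -1.04, and *LOX4*†‡ (AT1G72520), a lipoxygenase at the start of jasmonate synthesis, by -1.04. Without the first IaTCP1 array *JAZ5* was at -0.92 and without the second empty vector array at -0.99, and *LOX4* also missed the 2-fold limit without that array, so both calls are at the limit. Of the 35 genes of a list for stamen maturation and jasmonate, 6 were measured by 7 probe sets, and 7 of 7 fell (median -1.39, against 0.05 for all probe sets), but all of these carry names from the study's tables of changed genes and so had been selected. Against the same control arrays *MYB24* changed by -1.29 in TCP1 and by -0.74 in CYC, and the list had medians of -1.10 and -0.74. *JAZ5* was lower there as well, by -1.15 in TCP1 and -1.30 in CYC.

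Transcripts of late pollen fell with them. The cell wall glycoprotein *AGP6*† (AT5G14380), an arabinogalactan protein of pollen and pollen tubes, measured 7.98 and 8.08 in IaTCP1 and 10.25 and 10.30 in empty vector inflorescences (log2 change -2.24 ± 0.09, standard error; adjusted p = 7.97e-09). *HA6*† (AT2G07560) and *HA9*† (AT1G80660), plasma membrane proton pumps of pollen and anthers, measured 6.84 and 6.84 against 9.02 and 9.14, and 7.10 and 7.07 against 8.96 and 8.93. *VGDH2*† (AT3G62170), a pectin methylesterase of the pollen tube, measured 8.14 and 8.13, against 10.13 and 10.16. Each of the 4 was about 4-fold lower and still above the median of the array in IaTCP1. The sugar carriers of pollen *STP9*†‡ (AT1G50310) and *SUC1*†‡ (AT1G71880) changed by -1.92 and -1.77, and *AGP40*† (AT3G20865) and the receptor kinase *PRK2A*† (AT2G07040) of pollen tubes by -1.88 and -1.36.

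Of 61 genes of a mature pollen list, 25 had a probe set, of which 17 fell, 0 rose and 8 did neither, with a median of -1.37. The summed linear intensity of the 25 was 2932 and 2969 on the IaTCP1 arrays, against 8788 and 8766 on the empty vector arrays. In the 10 of them named by the platform table, which was not made from these arrays, 2 fell and the median was -0.55, beside 2.13% falls among all 13513 probe sets named that way. The pair was *ACT12* (AT3G46520), an actin of pollen, with 4.68 and 4.79 against 6.11 and 6.11, and *MGH3* (AT1G19890), the histone variant of male gametes, with 4.42 and 4.43 against 5.42 and 5.56, of which *MGH3* fell short of 2-fold without the second empty vector array. The other 8 ran from -0.99 for *AGL104*‡ (AT1G22130) to -0.01 for *AGL65*‡ (AT1G18750) and *AGL94*‡ (AT1G69540), with the pollen tube receptor kinases *ANX2*‡ (AT5G28680) at -0.72 and *ANX1*‡ (AT3G04690) at -0.30. The other 15 members fell without exception, but their names come from the study's tables of changed genes. In a bulk sample fewer cells of a type and less RNA per cell cannot be told apart, which holds for every group of genes described here.

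The tapetum feeds pollen and makes its outer wall. Of 18 measured genes of a tapetum and pollen wall list of 44, 1 fell and 17 did not pass (median -0.41, against -0.54 for TCP1 and -1.11 for CYC). The fall was *CALS5*† (AT2G13680), a callose synthase of the pollen mother cell wall, with 5.94 and 5.83 in IaTCP1 and 6.94 and 7.01 in the empty vector. Its 8 members named by the platform table had 0 falls and a median of -0.41, beside 2 falls of 10 and -0.55 for late pollen, and the difference between the lists was not tested. *UND*‡ (AT4G12920), an aspartic protease of tapetal cell death, had a log2 change of 0.54. The summed intensity of the list was 11688 and 11572, against 15702 and 16189. *RALFL25* (AT3G25165) and *RALFL26* (AT3G25170), small secreted peptides of the RALF family, were the only 2 of 11 RALF genes that fell (median of the family -0.06).

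Many enzymes that build or loosen the cell wall were among the falls. One count rests on a part of the genes that the study found in *Iberis* petals just after anthesis. The study kept these by a significance test on the small upper and large lower petals, so the set was chosen in another species. It was not chosen on these arrays, but it is no neutral sample of petal genes. The study reports cell wall genes as enriched among those higher in the upper petals, where *IaTCP1* is stronger. Of its 20 members classed as cell wall genes and named by the platform table, 12 fell and 0 rose in IaTCP1 inflorescences (median -1.12), whereas among all 705 classed members 60 fell and 11 rose (median -0.02). For the same 20 genes the median was -0.87 for TCP1 and -0.29 for CYC, each against the same empty vector arrays. Of 123 genes in the protein class 3 fell and 0 rose, of 21 transport genes 5 fell and 0 rose (median -0.13), and of 20 development genes 2 rose and 0 fell. The difference between classes was not tested.

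**Figure D3:**
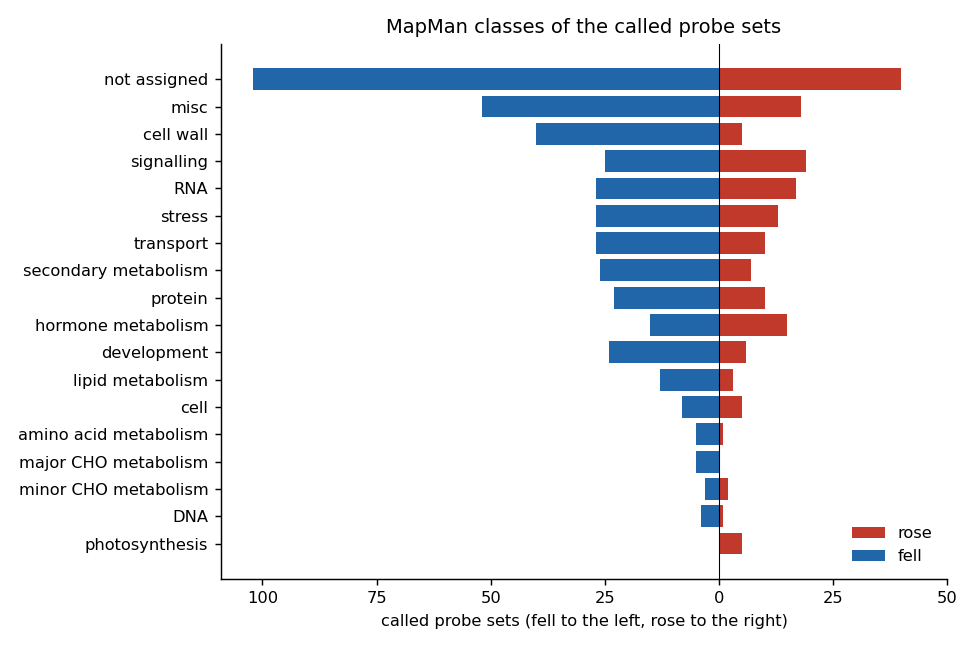
Number of changed probe sets in each MapMan functional class, falls drawn to the left and rises to the right of 0. The classes come from the study's tables, which partly hold only changed genes, so the bars give counts and not shares. Cell wall has 40 falls and 5 rises and hormone metabolism 15 of each. Photosynthesis has 5 rises, all of plastid-encoded probe sets, and 0 falls.

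Pectin enzymes made up most of this group. Pectin is the gel of the primary wall and of the pollen tube, and it is de-esterified by pectin methylesterases and then cut by polygalacturonases and pectate lyases. AT3G07820, a polygalacturonase, measured 7.76 and 7.81 in IaTCP1 and 10.28 and 10.31 with the empty vector (5.69-fold lower). AT5G07430, a pectin methylesterase, measured 6.95 and 6.94, against 9.46 and 9.42 (5.65-fold lower). AT3G01270, a pectate lyase, measured 7.87 and 7.70, against 10.16 and 9.99 (4.88-fold lower, adjusted p = 1.7e-08). All 3 remained measurable in IaTCP1 and overlapped nowhere with the control. *PGA4*† (AT1G02790), a polygalacturonase at a still higher level, measured 9.05 and 9.04, against 11.01 and 10.93. Over the platform-named genes, 7 of 7 polygalacturonases and pectin lyase-like proteins fell (median -1.95), a family that takes in AT5G07430. Of pectin methylesterases and their inhibitors 6 of 13 fell (median -0.94). Of invertases and inhibitors of invertase or pectin methylesterase 6 of 9 fell (median -1.63), with 0 rises in any of these families. The last 2 families share members, so their counts are not separate. Genes without a descriptive symbol or synonym could be matched only if they were in the *Iberis* petal set. The 7 falls of the first family are also among the petal cell wall genes counted above, as are some members of the other families. Their counts are therefore not separate from that one. Among the inhibitors AT1G10770 measured 6.91 and 6.98, against 9.24 and 9.33, and AT3G62180 5.56 and 5.41, against 7.65 and 7.72. Pollen tube enzymes are frequent in these families. In the direct comparison AT3G07820 differed by -1.23 from TCP1 (adjusted p = 5.38e-06) and by -2.37 from CYC (adjusted p = 5.64e-09).

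Expansins and xyloglucan enzymes, which loosen walls during growth, went both ways. *EXPA11*† (AT1G20190) fell to 7.95 and 8.07 in IaTCP1, against 10.32 and 10.35 with the empty vector, and *EXPA1*†‡ (AT1G69530), an expansin of growing organs, to 10.09 and 10.18, against 11.25 and 11.22. The platform-named expansins as a family had 2 falls and 0 rises among 19 and a median of 0.03, and the 5 named only by the study's tables had 3 falls and 1 rise. *XTH7*† (AT4G37800) had a log2 change of -1.54 and *XTH15*† (AT4G14130) one of 1.00 (0.95 without the second IaTCP1 array and 0.99 without the first empty vector array), with 8.83 and 8.94 against 7.87 and 7.90, and the 10 platform-named xyloglucan endotransglucosylases had a median of 0.22 with 1 fall. Of the arabinogalactan proteins, proteoglycans at the cell surface, 6 of 6 fell, all named only by the study's tables of changed genes and so selected. Among hydroxyproline-rich proteins the falls included *MEE26*† (AT2G34870) at 6.96 and 7.24 against 9.32 and 9.47 and *PELPK2*† (AT5G09520) at 4.73 and 4.82 against 6.73 and 7.04. Of 8 platform-named extensins and proline-rich wall proteins 2 fell and 0 rose (median -0.10).

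Sugar export and sugar uptake changed in different members of the same families. SWEET proteins let sucrose or hexoses pass across membranes. *AtVEX1* (AT5G62850), also called *SWEET5* and known from pollen, measured 5.54 and 5.64 in IaTCP1 and 8.0 and 8.05 with the empty vector (5.42-fold lower, adjusted p = 3.02e-09). *SWEET14* (AT4G25010) measured 6.49 and 6.53, against 8.46 and 8.56, and *SWEET4* (AT3G28007) 8.22 and 8.29, against 9.78 and 9.85. These 3 fell by 1.56 or more on the log2 scale. *SWEET12*† (AT5G23660), a sucrose exporter of the phloem, was higher instead, with 8.64 and 8.51 against 6.78 and 6.80, and *SWEET10*‡ (AT5G50790) was higher by 1.03, at 10.99 and 11.15 against 10.01 and 10.07, a call lost without the second IaTCP1 array (0.95) or the first empty vector array. *SWEET9* (AT2G39060), the sucrose exporter of nectaries, measured 5.24 and 5.34 in IaTCP1 and 8.76 and 8.75 in CYC, against 6.5 and 6.79 in the empty vector. The cell wall invertases *CWINV2*† (AT3G52600), *cwINV4*†‡ (AT2G36190) and *ATBFRUCT1*†‡ (AT3G13790), which split sucrose outside the cell, changed by -1.66, -1.55 and -1.41, and the sucrose synthase *SUS1*†‡ (AT5G20830) by -1.48. Over all platform-named sugar transporters, 1 of 17 rose and 4 fell (median -0.35).

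Other transporters that fell include *NRT1.5*† (AT1G32450), a nitrate carrier of the vasculature, with 5.89 and 5.70 in IaTCP1 and 8.23 and 8.05 in the empty vector, and *FRD3*† (AT3G08040), a citrate exporter needed for iron transport, with 5.14 and 5.24 against 6.88 and 6.69. *SIP1;2*† (AT5G18290), an aquaporin-like channel, rose to 8.66 and 8.75, against 6.95 and 7.01. *PEN3*† (AT1G59870), an ABC transporter of the plasma membrane that takes part in pathogen defence, rose to 7.72 and 7.54, against 6.31 and 6.20. In all 4 the groups were separated by more than 1 on the log2 scale.

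Several genes that respond to cold and drying fell. *COR15B* (AT2G42530), a chloroplast protein that protects membranes during freezing, measured 7.41 and 7.38 in IaTCP1 and 9.81 and 9.96 in the empty vector. *LTI78*† (AT5G52310), also known as *RD29A*, measured 7.66 and 7.54, against 9.70 and 9.68 (4.26-fold lower, adjusted p = 8.91e-09), and the dehydrin *COR47* (AT1G20440) 8.34 and 8.61, against 10.39 and 10.41. Both lines expressed these genes clearly, and IaTCP1 lay about 2 below the control on the log2 scale. The dehydrins *ERD10*† (AT1G20450) and *LTI30*‡ (AT3G50970) changed by -1.38 and -2.24, *DREB1A*†‡ (AT4G25480), a factor that switches on this set in the cold, by -1.66, and *GolS1*† (AT2G47180), which starts raffinose synthesis, by -1.90. *NAC019*† (AT1G52890), a factor of abscisic acid and jasmonate responses, fell to 8.36 and 8.25, against 10.37 and 10.41, and the abscisic acid-induced phosphatase *HAI2*† (AT1G07430) changed by -1.71. Among 11 platform-named late embryogenesis abundant and cold-regulated genes 4 fell and 0 rose (median -0.83), beside 2.13% falls among all platform-named probe sets. The heat shock gene *HSP70*† (AT3G12580) was the other way, with 7.74 and 7.60 against 5.75 and 5.85. In TCP1 its change was 0.13 and in CYC 3.18.

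Sulfur metabolism changed in 3 groups. Genes that rise when sulfate is scarce were higher, as 5 of 6 measured members of a low-sulfur list rose and the sixth did not pass. The median of the list was 1.40, against 1.43 for TCP1 and 0.85 for CYC, and among all probe sets 0.976% rose. *LSU1*† (AT3G49580), a small protein of the sulfate starvation response, measured 7.30 and 7.41 in IaTCP1 and 5.25 and 5.26 in the empty vector. AT5G26220†, a ChaC-like enzyme that breaks down glutathione, measured 9.83 and 9.87, against 8.09 and 8.08, and *SULTR1;2*† (AT1G78000), a root-type sulfate uptake carrier, 6.06 and 5.83, against 4.91 and 4.89. The list summed to 2503 and 2405 in linear intensity, against 775 and 808. The 2 members named by the platform table both rose, with AT1G04770‡ the smaller at 1.02, and 4 names come from the study's tables. *SULTR1;2* lay at 0.93 without the first IaTCP1 array and AT1G04770 at 0.90 without the first empty vector array, both then short of 2-fold.

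Glucosinolates are the sulfur-rich defence compounds of crucifers. Genes of the aliphatic type, made from methionine, were lower in part: of 15 measured genes of a list of 32, 8 fell, 2 rose and 5 did not pass. Among all probe sets 2.35% fell and 0.976% rose. The median of the list was -1.1, against -0.82 for TCP1 and -1.18 for CYC. *IPMI1*† (AT3G58990), which acts in the elongation of methionine side chains, measured 4.25 and 4.17 in IaTCP1 and 6.13 and 6.23 in the empty vector. *CYP83A1*† (AT4G13770), which makes the aliphatic core structure, measured 6.41 and 6.25, against 8.23 and 8.14, and *MAM1*† (AT5G23010), the first enzyme of chain elongation, changed by -1.40. *IPMI1*, *CYP83A1* and *MAM1* were lower by similar amounts in TCP1 (-1.98, -2.12 and -1.40) and in CYC (-2.11, -2.07 and -1.48). By the adjusted p of the direct comparison, 2 changed members of the list went further in IaTCP1 than in TCP1 and 4 further than in CYC. All 8 falls carry names from the study's tables, and the 4 members named by the platform table had 0 changes and a median of -0.07. The members that rose were *NSP5*† (AT5G48180), a nitrile specifier protein of glucosinolate breakdown, with 11.05 and 10.87 against 9.57 and 9.58, and *BZO1*† (AT1G65880), which makes benzoylated forms (1.1, and 0.98 without the first IaTCP1 array), whereas *ESM1*† (AT3G14210), which favours isothiocyanates in breakdown, fell to 9.43 and 9.49, against 11.34 and 11.24. The indolic type is made from tryptophan, and its genes were not counted as a list. *MYB34*† (AT5G60890), a regulator of this type, measured 6.48 and 6.75, against 4.71 and 4.86, and the enzymes *CYP79B2*†‡ (AT4G39950) and *CYP83B1*†‡ (AT4G31500) had log2 changes of 1.36 and 1.26. These 3 are named only by the study's tables of changed genes.

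**Figure D4:**
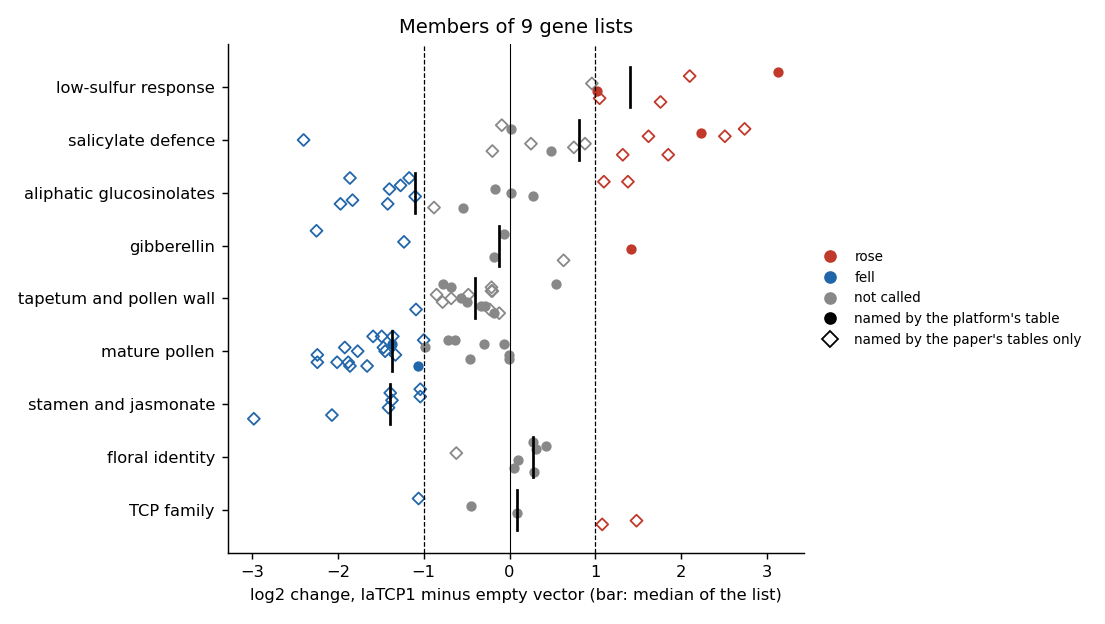
Log2 change (IaTCP1 minus empty vector) of every measured member of 9 gene lists, with filled circles for genes named by the platform table, open diamonds for genes named only by the study's tables and a bar at the list's median. Late pollen, stamen and aliphatic glucosinolate members lie mostly below 0, low-sulfur members above 0, and floral identity members between -0.62 and 0.42.

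Defence genes of the salicylate pathway rose more often than they fell. Of 14 measured genes of a list of 31, 6 rose, 1 fell and 7 did not pass (median 0.82, against 0.07 for TCP1 and 1.16 for CYC), beside 0.976% rises among all probe sets, but 11 of the 14 are named only by the study's tables of changed genes. Of its 3 platform-named members, 1 rose (median 0.48). The summed intensity of the 14 was 2502 and 2542 in IaTCP1 and 987 and 1032 in the empty vector, of which the 3, mainly *BSMT1*, made up 1611 and 1634 in IaTCP1 and 377 and 382 in the empty vector. *ACD6*† (AT4G14400), an ankyrin protein that raises salicylate levels, measured 6.82 and 6.85 in IaTCP1, against 4.98 and 4.99, and *WRKY46*† (AT2G46400), a factor of basal defence, 6.80 and 6.93, against 5.49 and 5.60. *BSMT1* (AT3G11480), which methylates salicylate to a volatile ester, measured 10.61 and 10.63, against 8.37 and 8.39 (4.7-fold higher, adjusted p = 1.07e-08). Each of these stood clear of the control. *ACD6* and *WRKY46* had changes of -0.22 and -0.02 in TCP1 and of 1.62 and -0.34 in CYC. *PNP-A*† (AT2G18660), a secreted peptide related to expansins and known from pathogen responses, measured 6.19 and 6.31, against 3.46 and 3.56. *BGL2*† (AT3G57260), a beta-1,3-glucanase, measured 6.58 and 6.71, against 4.13 and 4.15. Against this direction *PR5*† (AT1G75040), a thaumatin-like protein, fell to 5.79 and 5.45, against 7.96 and 8.07. The senescence and defence regulators *WRKY33*†‡ (AT2G38470) (0.88), *WRKY40*†‡ (AT1G80840) (0.75) and *WRKY53*‡ (AT4G23810) (0.48) were higher by the adjusted p but under 2-fold. *WRKY18*†‡ (AT4G31800) (0.25) and *SAG101*‡ (AT5G14930) (0.02) passed neither limit.

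Some immune receptors and kinases of the cell surface rose, most of them named only by the study's tables of changed genes. Among platform-named genes 0 of 3 matched to the disease resistance family, 0 of 7 leucine-rich repeat receptor kinases and 0 of 3 lectin receptor kinases were called in either direction (medians 0.26, 0.07 and 0.26). The match by words missed AT3G04210, a platform-named receptor gene that rose, so these counts are incomplete. AT3G04210, an intracellular receptor of the TIR-NBS type, measured 7.89 and 7.43 in IaTCP1 and 4.82 and 4.82 in the empty vector, and *HR4*† (AT3G50480), a homolog of the mildew resistance gene *RPW8*, 7.91 and 7.99, against 5.08 and 5.17. *RLM3*† (AT4G16990), another TIR-NBS gene, measured 6.55 and 5.45, against 3.96 and 3.80, so its arrays differed by more than 1 within IaTCP1 and its rise of 2.12 is less exact than the others. Of 6 cysteine-rich receptor-like kinases, all named by the study's tables, 5 rose and 0 fell, among them *CRK36*† (AT4G04490) with 5.32 and 5.32 against 3.97 and 3.91 and *CRK10*† (AT4G23180) with 7.54 and 7.55 against 6.41 and 6.32. The wall-associated kinases *WAK1*†‡ (AT1G21250) and *WAK2*†‡ (AT1G21270) rose by 1.74 and 1.68, and the mitogen-activated kinase *MPK3*†‡ (AT3G45640) by 1.17. Calcium signalling was divided, as *CPK29*† (AT1G76040) (1.28) and *CML41* (AT3G50770) (1.1, at the 2-fold limit without the second IaTCP1 array) rose with *TCH3*† (AT2G41100) (3.23), while *CPK24*† (AT2G31500) (-1.33), a calcium-dependent kinase of pollen tubes, fell. *CYP82G1*† (AT3G25180), a cytochrome P450 that makes volatile homoterpenes, rose to 7.43 and 7.23, against 5.15 and 5.13. *TPS10*† (AT2G24210), a terpene synthase of linalool, fell to 7.07 and 6.93, against 9.68 and 9.32, and *CYP76C3*† (AT2G45580), which oxidises linalool in flowers, to 6.49 and 6.57, against 8.39 and 8.37.

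Hormone genes moved in enzymes of synthesis and breakdown alike. For gibberellin, *ATGA2OX1*† (AT1G78440), which inactivates the hormone, fell to 6.24 and 6.34, against 8.51 and 8.55, and *GA20OX2*† (AT5G51810), which makes it, to 4.86 and 4.98, against 6.18 and 6.12. *GID1B* (AT3G63010), a gibberellin receptor, was higher at 6.58 and 5.84, against 4.89 and 4.68 (log2 change 1.42 ± 0.20, standard error; adjusted p = 0.000232), with a wide gap between its IaTCP1 arrays. In the brassinosteroid pathway *DWF4*† (AT3G50660), the rate-limiting hydroxylase, rose to 9.49 and 9.29, against 7.66 and 7.70, and *BEE3*† (AT1G73830), a bHLH gene that the hormone induces, fell to 4.64 and 4.85, against 6.11 and 6.36. Cytokinin oxidase *CKX1*† (AT2G41510), which breaks cytokinin down, measured 7.59 and 7.31, against 5.91 and 5.73, and *ARR9*†‡ (AT3G57040), a response regulator that cytokinin induces, 8.51 and 8.61, against 6.95 and 6.97. For ethylene, *ERF15*† (AT2G31230), an ethylene response factor, measured 6.10 and 6.01, against 4.18 and 4.27. Among changed probe sets with a functional class, 2 of 1-aminocyclopropane-1-carboxylate oxidase, in the ethylene synthesis class, rose and 0 fell. Among SAUR genes, which auxin induces within minutes, 4 of 8 fell and 0 rose, all named by the study's tables, for example AT4G12410† at 5.15 and 5.17 against 7.06 and 7.05. Of 6 measured genes of a gibberellin list of 21, 1 rose and 2 fell (median -0.12), and of 3 measured genes of a brassinosteroid list of 20, 1 rose and 1 fell.

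The *TCP* family itself was touched in 3 of its 5 measured probe sets, out of 24 genes, beside 3.32% of all probe sets. These 3 are named only by the study's tables of changed genes and so had been selected. The 2 members named by the platform table had 0 calls and a median of -0.18. *TCP9*† (AT2G45680) measured 8.02 and 7.89 in IaTCP1 and 6.62 and 6.33 in the empty vector (2.78-fold higher, adjusted p = 7.25e-07), and it was higher in TCP1 and CYC too, by 1.28 and 1.81. *TCP11*† (AT5G08330), so named in the RefSeq table and also known as *TCP21* or *CHE*, measured 8.68 and 8.68, against 7.52 and 7.68, a rise of 1.08, whereas its changes were 0.21 in TCP1 and -0.03 in CYC. It lies inside a stretch of chromosome 5 in which 26 of 27 measured genes were higher by the adjusted p alone. *TCP4*† (AT3G15030), a member of the CIN clade whose transcript miR319 cuts and which slows cell division in growing organs, measured 6.79 and 6.79, against 8.01 and 7.69 (log2 change -1.06), and was at -0.90, short of 2-fold, without the first empty vector array. *TCP15* (AT1G69690) had a change of -0.45 (adjusted p = 0.00329), under the 2-fold limit, and AT2G37000, a gene for which the name *TCP11* is also in use, one of 0.09. *TCP4* changed by -0.96 in TCP1 and -0.89 in CYC, so that *TCP9* and *TCP4* had values of 1 sign in all 3 transgenic groups and *TCP11* had not.

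No measured gene of a floral identity list changed 2-fold, but few were measured. Of its 28 genes 7 were measured, and by limma 0 rose and 0 fell. Over all probe sets 3.32% were called, so 0 calls among so few genes is close to that share. At an unadjusted p under 0.05, 3 were higher and 1 lower. *AP1*† (AT1G69120), the MADS gene of sepals and petals, was the only one at a high level, with 10.48 and 10.56 in IaTCP1 and 11.12 and 11.16 in the empty vector (log2 change -0.62, adjusted p = 0.000225), and the defining genes of the other floral organs had no named probe set. *PTL* (AT5G03680), *CLV3* (AT2G27250), *RBE* (AT5G06070), *UFO* (AT1G30950), *NUB* (AT1G13400) and *JAG* (AT1G68480) had changes of 0.42, 0.31, 0.28, 0.27, 0.10 and 0.05. Among regulators outside these lists, *AGL91* (AT3G66656), a MADS gene of the type I group, rose to 6.39 and 6.41, against 4.0 and 4.02, and was the only one of 44 platform-named MADS genes to change (median 0.07). The bHLH gene *UNE10*† (AT4G00050), a relative of the phytochrome-interacting factors, rose to 8.80 and 8.95, against 6.98 and 7.07, and *NGA2*‡ (AT3G61970), a B3 factor of lateral organ growth, to 7.91 and 7.96, against 6.29 and 6.29. Markers of green tissue had 0 rises and 2 falls of 5 (*ELIP2*† (AT4G14690) -1.45 and *PORB* (AT4G27440) -1.17) and a summed intensity of 19400 and 19218, against 23505 and 22428. Of 3 dividing-cell and 3 carpel and ovule genes measured, 0 rose or fell by limma, with medians of 0.30 and 0.31 (2 of each 3 higher at an unadjusted p under 0.05), and of 2 petal growth genes likewise 0, with a median of -0.72. Both petal growth genes, *ARL*‡ (AT2G44080) at -0.80 (limma adjusted p = 0.000316) and *BPEp*‡ (AT1G59640) at -0.65 (adjusted p = 0.000199), passed the adjusted p and missed only the 2-fold limit. The 27 ribosomal protein genes had a median of 0.08 and 0 calls, with 4 higher and 1 lower at an unadjusted p under 0.05.

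Many transcripts encoded in the plastid genome were higher, and the few nuclear genes of photosynthesis that were measured were not. Of 69 such probe sets 14 rose and 0 fell by limma (36 higher and 7 lower at an unadjusted p under 0.05), beside 0.976% rises and 2.35% falls among all probe sets. They had a median of 0.45, a range of -0.42 to 1.96 and 51 of 69 above 0. *ndhG*, a subunit of the chloroplast NADH dehydrogenase-like complex, measured 7.0 and 7.29 in IaTCP1 and 4.97 and 5.41 in the empty vector. *petN*, a small subunit of the cytochrome b6f complex, measured 6.87 and 6.94, against 5.11 and 5.17, and *ycf3*, an assembly factor of photosystem I, 8.67 and 8.81, against 6.5 and 7.17. The empty vector arrays differed from each other by 0.67 in *ycf3*, and IaTCP1 still exceeded both. The other rises were *psaC* (1.54), *ycf4* (1.49), *ndhD* (1.42), *rpoC1* (1.38), *psbB* (1.35), *psbN* (1.24), *petG* (1.23), *petD* (1.18), *atpI* (1.12), *accD* (1.08) and *psbD* (1.00), which cover photosystems, the cytochrome complex, the ATP synthase, the plastid RNA polymerase and fatty acid synthesis. The median was 0.74 in TCP1 and 0.43 in CYC, each against the same control arrays. The nuclear *LHCB4.1*‡ (AT5G01530), *PRK*‡ (AT1G32060) and *RCA*‡ (AT2G39730), which serve light harvesting and carbon fixation, had changes of -0.21, -0.12 and -0.11. The 2 mitochondrially encoded probe sets changed by 0.22 and 0.81 and did not pass. The set was chosen after its values were seen, and it depends on the control: without the first empty vector array 8 of 69 rose and the median was 0.13, and without the second 25 rose and the median was 0.70, with 0 falls in both cases.

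A block of neighbouring genes on chromosome 5 was higher by close to 2-fold in IaTCP1 inflorescences and not in those of TCP1 or CYC. In the gene order of the RefSeq annotation of assembly TAIR10.1 it runs from AT5G08270 to AT5G08580, where 27 of 57 annotated genes were measured, 23 of them named by the platform table. All 27 had a change above 0, 26 passed the adjusted p and 11 of these also the 2-fold limit, which is 4.95% of all 222 rises. The median was 0.97 (1.97-fold), the quartiles were 0.87 and 1.07, and the range ran from 0.08 for AT5G08460, whose groups overlapped (adjusted p = 0.597), to 1.5 for AT5G08350. The 14 measured genes flanking the block had a median of 0.02 and changes between -0.31 and 0.27. For TCP1 and CYC the same 27 genes had medians of 0.06 and -0.02 against the empty vector, with 0 called by limma in either (3 higher and 1 lower for TCP1, 3 higher and 5 lower for CYC, at an unadjusted p under 0.05), where 1.91% and 3.08% of all probe sets were called. The direct difference of IaTCP1 had a median of 0.96 from TCP1 and of 1.01 from CYC.

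The named members of the block have different functions. AT5G08350, a GRAM domain protein linked to abscisic acid, measured 8.07 and 8.30 in IaTCP1 and 6.58 and 6.79 in the empty vector. AT5G08420, an RNA-binding protein with a KH domain, measured 9.92 and 9.97, against 8.61 and 8.74, and AT5G08300, the alpha subunit of succinyl-CoA ligase, 11.57 and 11.59, against 10.40 and 10.48. The 3 dimmest, AT5G08460, AT5G08360 and AT5G08305, with means of 4.76, 4.70 and 4.41 in the empty vector, had small changes of 0.08, 0.49 and 0.60. Small changes were not confined to dim genes, as AT5G08540‡, with a mean of 10.08 in the empty vector, changed by 0.35 (limma adjusted p = 0.0331). *AGAL1*† (AT5G08380), an alpha-galactosidase, measured 9.83 and 9.84, against 8.79 and 8.75, and *ILP1*† (AT5G08550), a regulator of endoreduplication, 8.14 and 8.17, against 7.19 and 6.98. AT5G08430, AT5G08560, AT5G08520, AT5G08580 and *TCP11* were among the other rises, at 1.12, 1.1, 1.08, 1.03 and 1.08. *ILP1* and AT5G08580 missed the 2-fold limit when a single array was left out, each at 0.96. Running medians over 11 neighbouring platform-named genes, taken along the whole genome in 12937 windows, peaked here at 0.99, and the highest value elsewhere was 0.32. The corresponding peaks were 0.28 for TCP1 and 0.58 for CYC. With genes named only by the study's tables of changed genes added, the peak for IaTCP1 stayed at 0.99 and the highest value elsewhere was 0.38, while the peak was 0.29 for TCP1 and 1.18 for CYC, where it lay around AT2G41170 on chromosome 2. The block was noticed in the data and is described without a test, gene copy number was not measured, and with 1 line per group the effect of the transgene and a trait of that line or its insertion site cannot be told apart.

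**Figure D5:**
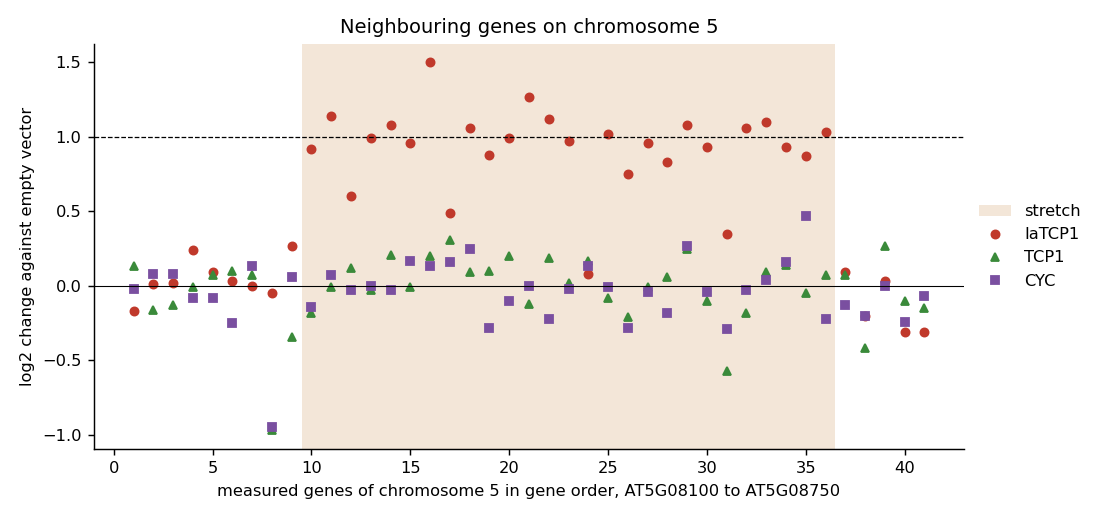
Log2 change against the empty vector for 41 measured genes in gene order along chromosome 5, for IaTCP1, TCP1 and CYC, with the stretch of 27 genes shaded. IaTCP1 values step up to a median of 0.97 inside the shaded part and lie around 0.02 outside it, while most TCP1 and CYC values lie near 0.

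The opposite extreme of the same running medians, -1.03, lay on chromosome 3 around AT3G28870. Between AT3G28750 and AT3G28980 14 genes were measured, of which 7 fell (median of these -2.05) and 7 did not pass (changes of -0.59 to 0.53). AT3G28750‡ measured 8.0 and 7.98 in IaTCP1 and 10.32 and 10.25 in the empty vector. For the 7 that fell the median was -1.08 in TCP1 and -0.17 in CYC. Genes that fell and genes that did not lay interspersed in this run.

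Set directly against the other transgenes, IaTCP1 inflorescences differed from TCP1 in fewer probe sets than from CYC. Between IaTCP1 and TCP1 146 probe sets differed (0.642%), with 68 higher (0.299%) and 78 lower (0.343%) in IaTCP1, and between IaTCP1 and CYC 618 differed (2.72%), with 169 higher (0.743%) and 449 lower (1.97%). The 534 falls had a median change of -1.44 in IaTCP1, -0.98 in TCP1 and -0.44 in CYC, and the 222 rises 1.37, 0.92 and 1.1. These medians share the control arrays, and members chosen for their change in IaTCP1 tend to be more extreme there. In the direct comparison 63 of the 534 were lower in IaTCP1 than in TCP1 and 0 higher, and 258 were lower than in CYC and 5 higher.

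Among the 25 late pollen probe sets 15 were lower in IaTCP1 than in CYC and 3 lower than in TCP1, and the medians relative to the empty vector were -1.37 for IaTCP1, -0.86 for TCP1 and -0.09 for CYC. *VGDH2* measured 8.14 and 8.13 in IaTCP1, 9.18 and 9.15 in TCP1, 10.04 and 10.12 in CYC and 10.13 and 10.16 in the empty vector. For *AGP6* the values were 7.98 and 8.08 in IaTCP1, 8.79 and 8.99 in TCP1, 10.01 and 9.96 in CYC and 10.25 and 10.30 in the empty vector. TCP1 thus stood between IaTCP1 and the control in both, and CYC close to the control.

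The transcripts by which IaTCP1 differed most from TCP1 were not of pollen alone. *SBT4.13* (AT5G59120), a subtilisin-like protease, measured 5.71 and 5.24 in IaTCP1, 7.55 and 7.64 in TCP1 and 9.06 and 8.95 in the empty vector. In the upward direction *scpl44* (AT1G43780), a serine carboxypeptidase-like protein, measured 6.26 and 5.78 in IaTCP1, 3.68 and 3.71 in TCP1, 3.95 and 3.80 in CYC and 3.78 and 3.82 in the empty vector. *PNP-A* exceeded TCP1 by 2.49 (adjusted p = 6.28e-08) and CYC by 2.45 (adjusted p = 1.15e-08), and *TCH3* exceeded TCP1 by 2.82 (adjusted p = 6.28e-08) but differed from CYC by only 0.20 (adjusted p = 0.237). *AGL91* was higher than in TCP1 by 2.08 and than in CYC by 2.2, *NAC001*† (AT1G01010) by 1.81 and 2.18, and *UNE10* by 1.46 and 1.83. For these 3 regulators TCP1 and CYC lay close to the empty vector, with *UNE10* at 0.39 and 0.02 and *NAC001* at -0.01 and -0.38. From CYC the largest distances among probe sets that name 1 gene were those of *SWEET9* (-3.47), AT5G42170 (-2.81) and AT4G12530, a lipid-transfer protein (-2.68), downward, and of AT3G44970 (3.43), *AIR3*† (AT2G04160) (2.76) and *PNP-A* upward.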

How the data were processed

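RNA of secondary inflorescences was hybridised to 8 Affymetrix ATH1 arrays, 2 for each of 4 groups (35S::IaTCP1, 35S::TCP1, 35S::CYC and the empty vector). The authors normalised the arrays by RMA in Partek, per the labels, and deposited the log2 intensity of each probe set on each array, and these values were used unchanged. RMA makes the arrays' distributions equal, so a shift of all transcripts in 1 direction cannot be seen, and it compresses differences of dim probe sets. The number of arrays limits the precision. After 64 AFFX controls were left out, 22746 probe sets remained.

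Groups were taken from the sample titles. The 8 arrays were fitted together with limma 3.58.1 under R 4.3.3, using lmFit on a mean for every group and then eBayes, which left 4 residual degrees of freedom and added 7.9 from the prior, and the contrasts IaTCP1 minus empty vector, minus TCP1 and minus CYC were adjusted by Benjamini and Hochberg over all probe sets. The threshold of 2-fold follows the study's methods, and 0.05 was applied to the adjusted p. The fit was tested on simulated data.

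The platform table names 1 gene for 13513 probe sets and several for 503. A further 428 are named only through the study's tables, used for identity and functional class and never for values, and 8302 have no name here. Current symbols and gene order come from the RefSeq table of assembly TAIR10.1. The array's build is not given in the sources used here, so no coordinates are printed. Families were formed by words in symbols and descriptions, so a family may miss or misplace a member and a gene may be in several. Named genes are the 15 largest rises and falls with non-overlapping groups, up to 4 changed members of each list or family by adjusted p, all floral identity and TCP members, and the 3 largest direct differences in each direction from TCP1 and CYC. The comparison, lists, families and this rule were chosen with earlier results of these data known. A list for epidermis and cuticle of 18 genes had 0 measured members. The alternatives were another fold minimum, an unadjusted p, cyclic loess, a filter on dim probe sets, a fit of 4 arrays, the replicate number as a block, another prior and leaving out each array. Promoter sequences were not analysed here.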

Additional observations from a re-analysis of the deposited data

Results flagged for a closer look

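Some transcripts moved in opposite directions in IaTCP1 and CYC inflorescences, each against the same empty vector arrays, and the direct difference between the transgenes passed the limma call as well. The nectary sucrose exporter *SWEET9* changed by -1.36 in IaTCP1 and by 2.1 in CYC, a direct difference of -3.47. The lipid-transfer gene AT4G12530 changed by -1.03 and 1.65 (direct difference -2.68), and the xyloglucan endotransglucosylase *XTH19* by -1.01 and 1.48 (direct difference -2.50). Against the empty vector the IaTCP1 changes of AT4G12530 and *XTH19* no longer reached 2-fold when a single array was left out, at -1.0 and at -0.97 or -0.91. A probe set that has no gene name in the tables used here changed by -1.11 and 1.77 (direct difference -2.88). *LURP1*, a defence-related gene named only through the study's tables, went the other way, with 1.13 in IaTCP1 (0.94, short of 2-fold, without the first empty vector array) and -1.20 in CYC (direct difference 2.32).

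The stretch of 27 genes on chromosome 5 stood out in the direct comparisons too, with a median difference of 0.96 between IaTCP1 and TCP1 and of 1.01 between IaTCP1 and CYC. It was chosen after its values were seen. With 2 arrays per group, single outlying arrays could not be looked for.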

How the results depend on the processing

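No alternative run here turned the direction of any of the 180 named calls, and the other calls were not checked for this. At 1.5-fold 573 probe sets were higher and 1281 lower in IaTCP1 than with the empty vector, 528 differed from TCP1 and 1545 from CYC, and there were 73 calls in the gene lists and 286 in the families. With probe sets of a mean under 6 left out, fewer were tested, 157 were higher and 328 lower, and 35 of 57 calls in the gene lists and 120 of 192 in the families remained. Leaving out 1 array gave 217 to 246 higher and 537 to 562 lower, 139 to 163 differing from TCP1 and 621 to 647 from CYC (arrays of TCP1 and CYC included, a choice made after seeing the data), 55 to 58 calls in the lists and 185 to 193 in the families, the lone array being assumed to vary like the other groups. Cyclic loess gave 210 higher and 575 lower and kept 177 of 180 named calls. The labels do not say that equal replicate numbers mark a shared sample or day, but the deviations of equally numbered arrays correlated positively in each of the 6 pairs of groups, with r of 0.164 to 0.516 (0.516 for IaTCP1 and empty vector), and the replicate block gave 223 higher and 534 lower and kept 180 of 180 named calls. Plastid-encoded transcripts, examined after their values were seen, had 14 rises of 69 and between 8 and 25 without 1 array, 8 with another prior and 24 at 1.5-fold. The search of promoters for motifs was not run.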
